A study of Mus musculus with 6 samples.

Results

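The Hox genes of the 4 mouse clusters were examined in label-retaining chondrocytes (LRCs) and non-LRCs of the growth plate. They were taken as every gene of the count table whose symbol is Hoxa, Hoxb, Hoxc or Hoxd followed by a number, which gave 39 of 23159 genes: 11 Hoxa, 10 Hoxb, 9 Hoxc and 9 Hoxd genes. The study asked how slow-cycling chondrocytes of the resting zone differ from their more often dividing progeny. RNA was sequenced from 3 independent experiments, and every experiment contributed a pair of libraries, 1 of LRCs and 1 of non-LRCs, 6 in all.

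Both groups came from the same Col2-Q mice at postnatal day (P) 49. All of these mice were homozygous for 4 alleles, namely Peli2(Col2a1-tTA/Col2a1-tTA), and with it Col1a1(TRE-H2B-GFP/TRE-H2B-GFP), then Col2a1-creER/Col2a1-creER and lastly R26R(tdTomato/tdTomato). All mice received doxycycline from P21 to P49, which stops new H2B-GFP so that dividing cells dilute it, and tamoxifen at P46 and P47, which marks Col2a1-expressing cells with tdTomato. LRCs were the tdTomato-positive cells with the highest H2B-GFP, and non-LRCs the tdTomato-positive cells with mid to low H2B-GFP, about 10000 and 50000 cells per library. As a model, the groups have 3 limits. The Col2a1 promoter drives both the transactivator and the recombinase, each library pooled cells of several littermates, and distal femur and proximal tibia growth plates were collected together. Hox levels therefore cannot be assigned to the thigh or the lower leg, and in such bulk samples fewer cells of a type and less RNA per cell cannot be told apart.

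Hox genes encode homeodomain transcription factors. They lie in clusters, in which the order of genes along the chromosome follows the body axis along which they act, and genes of the same number in different clusters form a paralog group. In the limb, the groups from 9 upward pattern the skeleton from its proximal to its distal part. Group 10 is known for the upper segment, joined by group 9 mainly in the forelimb. Group 11 is known for the middle segment and group 13 for the hand or foot. Many Hox proteins bind DNA together with cofactors of the TALE class (Pbx, Meis and Pknox).

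The libraries held between 18943789 and 129559872 counts, of which 3123 to 11706 fell on Hox genes, and 16 to 24 Hox genes reached 10 counts in a library. The LRC library of experiment 2 was the shallowest and stood apart: 1731 of the 13728 genes tested were at 0 there, against 4 to 365 in the other libraries. Values are therefore given by library, and what depends on experiment 2 is stated. The 7 chondrocyte markers summed to between 77989 and 215642 CPM (read counts scaled to library size) in LRCs and between 126948 and 220961 in non-LRCs. The log2 fold change of LRC over non-LRC was above 0 for 1 of these 7 and below 0 for 6, with a median of -0.43. In edgeR 0 of them were called, beside 1.28% of all genes tested. At an unadjusted p below 0.05 edgeR had 3, all lower in LRCs, beside 18.4% of all genes tested. All 5 resting chondrocyte markers (Pthlh, Sfrp5, Gas1, Spon1 and Wif1) had a positive log2 fold change, beside 44% of all genes tested. In edgeR 4 of them were upregulated in LRCs, beside 1.28% of all genes tested called in either direction. These markers were taken from the study of these same libraries, so they are no independent check of the cells. The endothelial list stayed at or below 0.681 CPM in every library, with Cdh5, Kdr and Emcn at 0 throughout. Of the leukocyte and erythroid list, Hba-a1 was at 0 throughout, and the list summed to 6.45 to 7.41 CPM in LRCs and 6.74 to 11.9 in non-LRCs.

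Hox transcripts came from 3 of the 4 clusters. Levels between genes are compared as TMM-normalized CPM per kilobase (kb) of annotated exon. By this measure, the Hoxc cluster held 53.2% of the summed Hox level, averaged over the 6 libraries, the Hoxa cluster 33.8%, the Hoxd cluster 12.6% and the Hoxb cluster 0.33%. The 4 genes with the highest mean level were Hoxc10, Hoxa10, Hoxc8 and Hoxd8, and together they held between 65.3% and 72.6% of the summed level in each library. These were not rare transcripts. The mean level of Hoxc10 lay above that of 75.8% of the tested genes with an annotated length, that of Hoxa10 above 68.0%, that of Hoxc8 above 61.1% and that of Hoxd8 above 56.1%. The other 13 tested Hox genes lay below the median of these genes, which was 3.06 CPM per kb.

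**Figure D1:**
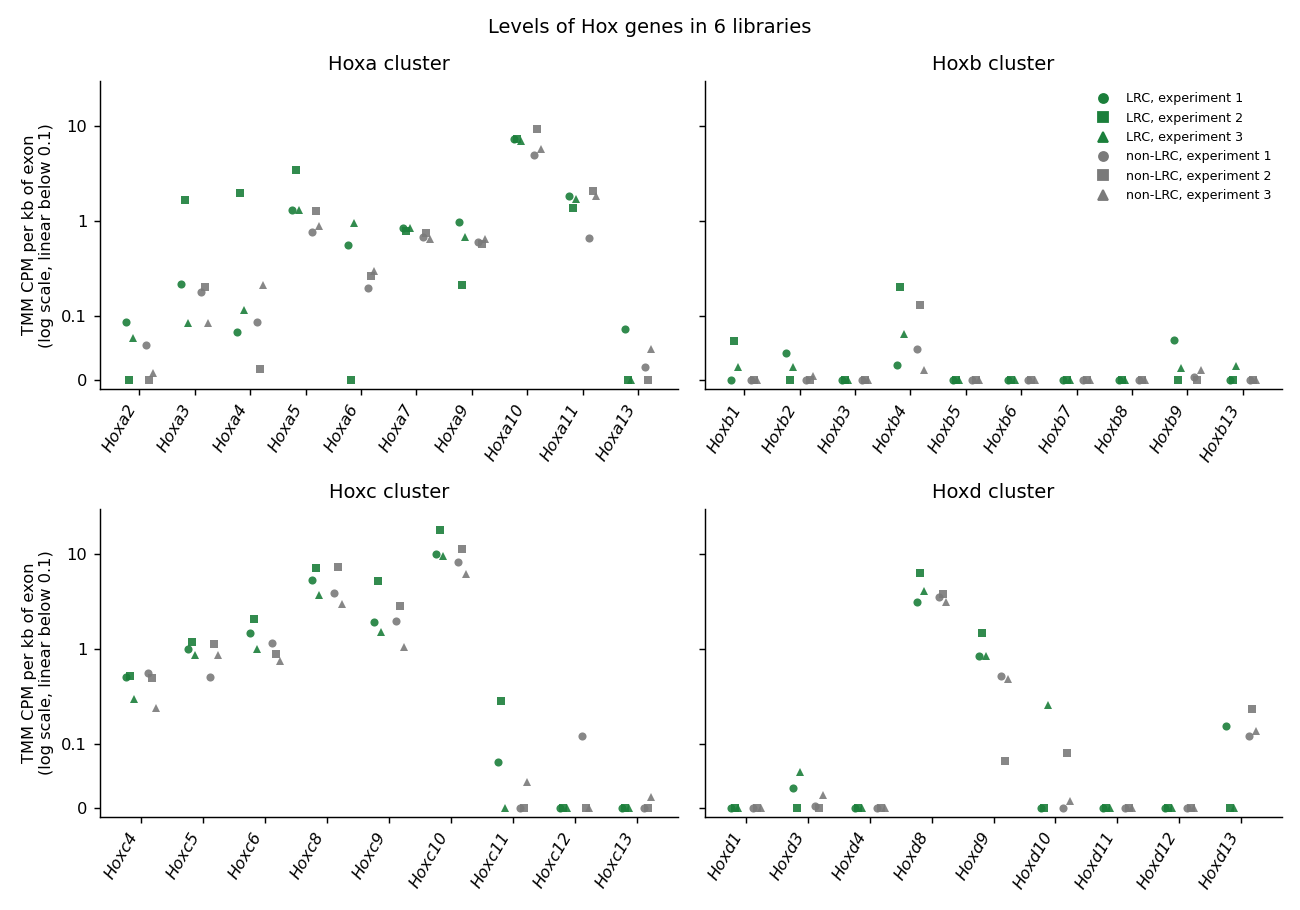
Each panel plots the level of genes of 1 Hox cluster (38 of the 39 Hox genes are drawn), in order of paralog group, in TMM-normalized CPM per kb of exon on a log scale that is linear below 0.1. Green points are LRC and grey points non-LRC libraries, with the marker shape giving the experiment. Hoxb genes sit at or near 0, whereas Hoxa10, Hoxc8, Hoxc10 and Hoxd8 sit between 2.99 and 17.8 in every library.

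Group 10 held the largest part of the Hox level, 45.2%, followed by group 8 with 23.4% and group 9 with 9.71%. Summed over its members, group 10 stood at 17.3, 25.1 and 16.9 CPM per kb in LRCs (here and throughout in the order of experiments 1, 2 and 3), and at 13.2, 20.7 and 12.1 in non-LRCs. Group 8 stood at 8.54, 13.5 and 7.74 CPM per kb in LRCs and at 7.49, 11.0 and 6.14 in non-LRCs. Both sums were higher in the LRC library of each of the 3 pairs, while the ranges of the groups overlapped. Groups 5 and 11 held 6.27% and 4.29%, and the low groups were 2, 12 and 13, with 0.125%, 0.0524% and 0.357%.

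**Figure D2:**
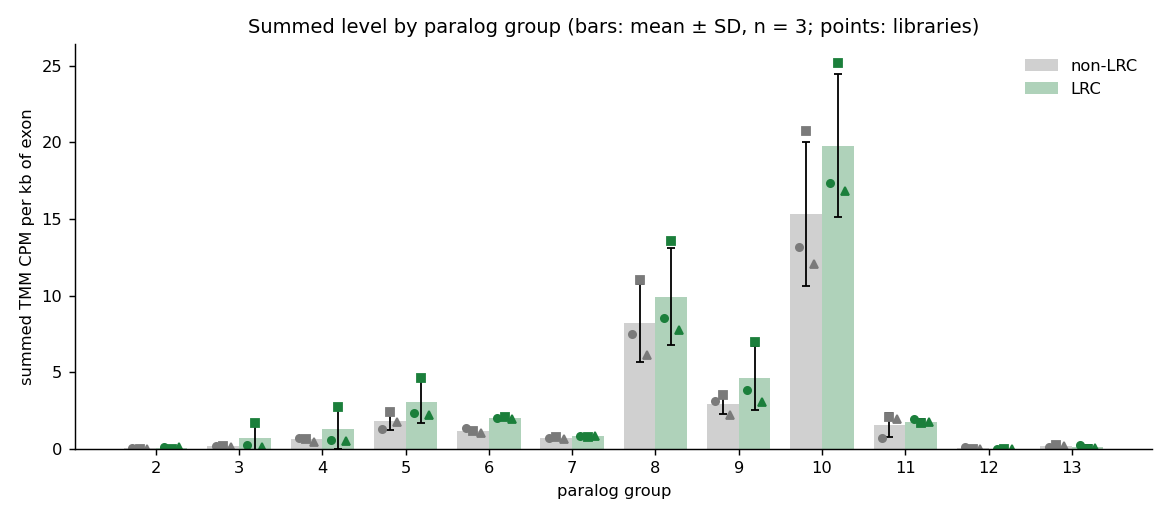
Bars give the mean summed level of paralog groups 2 to 13 in TMM-normalized CPM per kb of exon, error bars the SD over 3 libraries, and points the libraries (circle, square and triangle for experiments 1, 2 and 3). Groups 10 and 8 rise above all others in LRCs and non-LRCs alike, and the square of experiment 2 is the highest point of group 10 in both.

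Within a paralog group the level was carried by some members and not by others. The homeoboxes of groups 10 and 8, the 180 bases that encode the DNA-binding domain, are shown because these groups pair highly expressed members with a member near or at 0. Capitals mark the positions at which the 3 members of a group are not identical. The sequences were read from GENCODE vM21 transcripts (GRCm38) and each lies in the last of 2 exons. In group 10, the homeobox of Hoxa10 lies at chr6:52232554-52232733 on the minus strand, that of Hoxc10 at chr15:102970848-102971027 and that of Hoxd10 at chr2:74694141-74694320, both on the plus strand, and 50 positions differ.
Hoxa10: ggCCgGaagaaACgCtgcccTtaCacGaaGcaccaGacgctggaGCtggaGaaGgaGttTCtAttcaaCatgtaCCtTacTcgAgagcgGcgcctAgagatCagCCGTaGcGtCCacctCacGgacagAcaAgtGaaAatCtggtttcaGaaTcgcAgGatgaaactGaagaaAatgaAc
Hoxc10: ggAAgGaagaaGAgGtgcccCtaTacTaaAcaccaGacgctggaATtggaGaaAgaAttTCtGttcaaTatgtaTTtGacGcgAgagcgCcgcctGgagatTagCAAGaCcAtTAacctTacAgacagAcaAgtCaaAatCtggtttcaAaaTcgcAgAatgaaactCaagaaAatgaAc
Hoxd10: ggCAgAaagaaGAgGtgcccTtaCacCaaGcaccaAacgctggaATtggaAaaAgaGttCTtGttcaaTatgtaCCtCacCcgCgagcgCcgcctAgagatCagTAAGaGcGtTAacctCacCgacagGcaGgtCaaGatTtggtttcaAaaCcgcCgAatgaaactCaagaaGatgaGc

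In group 8, which has no Hoxa member, the homeobox of Hoxb8 lies at chr11:96284174-96284353, that of Hoxc8 at chr15:102992571-102992750 and that of Hoxd8 at chr2:74706525-74706704, all on the plus strand, and 56 positions differ.
Hoxb8: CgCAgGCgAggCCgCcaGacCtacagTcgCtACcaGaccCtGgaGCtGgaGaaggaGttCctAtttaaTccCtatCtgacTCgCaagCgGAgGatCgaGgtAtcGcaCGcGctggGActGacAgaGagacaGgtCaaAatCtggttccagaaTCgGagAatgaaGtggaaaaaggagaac
Hoxc8: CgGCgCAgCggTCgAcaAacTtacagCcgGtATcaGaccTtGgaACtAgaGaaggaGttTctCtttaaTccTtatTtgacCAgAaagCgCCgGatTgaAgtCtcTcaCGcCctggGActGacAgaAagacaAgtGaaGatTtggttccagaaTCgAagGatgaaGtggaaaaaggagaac
Hoxd8: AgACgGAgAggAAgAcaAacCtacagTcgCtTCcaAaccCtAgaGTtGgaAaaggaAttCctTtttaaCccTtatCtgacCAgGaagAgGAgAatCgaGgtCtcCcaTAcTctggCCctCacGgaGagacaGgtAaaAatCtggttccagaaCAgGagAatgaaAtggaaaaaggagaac

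The differences are spread over the homeobox. Hoxa10 and Hoxc10 were identical at 145 of 180 bases and Hoxc8 and Hoxd8 at 132, with the longest identical run at 14 and 15 bases, and Hoxb8 and Hoxc8 shared a run of 21 bases. The reads were 50 bases long. Genes whose exons overlap those of a member were left out of the next count. Of all 50-base words of their exons, Hoxa10, Hoxc10, Hoxd10, Hoxb8 and Hoxd8 shared 0 with any gene elsewhere. Hoxc8 shared 0.43%, none of them with another Hox gene. Over all 39 members, the largest such share was 1.44%, for Hoxc9. Overlapping exons on the same strand cover 8.7% of the exonic bases of Hoxc10 (with Hoxc5) and 5.7% of those of Hoxd10. How reads there were counted is not known.

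Hoxc10, on chromosome 15 (102966796 to 102971893), was the highest Hox gene in all 6 libraries. It stood at 9.97, 17.8 and 9.57 CPM per kb in LRCs and at 8.20, 11.3 and 6.22 in non-LRCs. The LRC value was the higher in each pair, but the lowest LRC value lay below the highest non-LRC value. Next came Hoxa10, on chromosome 6 (52231197 to 52240854), which was second in all libraries. Its level was 7.34, 7.32 and 7.02 CPM per kb in LRCs and 4.98, 9.34 and 5.84 in non-LRCs, so that the LRC values lay inside the range of the non-LRC values. The third member of the group, Hoxd10, had 27 counts over all 6 libraries and at most 0.256 CPM per kb, in the LRC library of experiment 3.

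Hoxc8 and Hoxd8 could not be ordered: Hoxc8 was the higher in 4 of 6 libraries. Hoxc8 measured 5.38, 7.16 and 3.70 CPM per kb in LRCs and 3.91, 7.25 and 2.99 in non-LRCs. Hoxd8 measured 3.16, 6.38 and 4.05 CPM per kb in LRCs and 3.57, 3.80 and 3.15 in non-LRCs. The groups overlapped for both genes. Hoxb8, their paralog in the Hoxb cluster, had no count in any library. Taking 3 counts per library as the limit that a count of 0 allows, the level of Hoxc8 was at least 131-fold and that of Hoxd8 at least 117-fold higher than that of Hoxb8 in each library.

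Below Hoxd8 the order was loose. Hoxd8 stood above Hoxc9 in all 6 libraries, but among the pairs of neighbours from Hoxc9 down to Hoxa6 none kept its order in all 6. The 3 tested members of group 9 were spread over a wide range. Hoxc9 stood at 1.92, 5.27 and 1.504 CPM per kb in LRCs and 1.97, 2.83 and 1.05 in non-LRCs. Hoxd9 was measured at 0.854, 1.48 and 0.839 in LRCs against 0.521, 0.0735 and 0.490 in non-LRCs, so that every LRC library lay above every non-LRC library. Hoxa9 had 0.998, 0.214 and 0.692 CPM per kb in LRCs and 0.602, 0.573 and 0.649 in non-LRCs, with the LRC libraries on both sides. Hoxb9 was near 0, with 24 counts over all libraries.

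Group 11, known for the middle limb segment, was carried by Hoxa11. It stood at 1.87, 1.38 and 1.72 CPM per kb in LRCs and at 0.673, 2.08 and 1.87 in non-LRCs, and the 2 groups overlapped. An antisense gene covers 35% of the exonic bases of Hoxa11, and the strand setting of the counting is not given in the sources used here, so how reads over that stretch were counted is not known. Hoxd11, which acts together with Hoxa11 in limb development, had no count in any library. The level of Hoxa11 was at least 40.5-fold higher than that of Hoxd11 in each library. Hoxc11 had 33 counts over all 6 libraries. Of group 13, Hoxd13 passed the filter with 0.155, 0 and 0 CPM per kb in LRCs and 0.121, 0.232 and 0.138 in non-LRCs. Hoxa13, Hoxb13 and Hoxc13 had 34, 2 and 2 counts in all.

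Groups 2 to 7, known mainly for the trunk and neck, were low throughout, with Hoxa5 the highest. It measured 1.32, 3.44 and 1.31 CPM per kb in LRCs and 0.774, 1.30 and 0.900 in non-LRCs, with no overlap, though the lowest LRC value of 1.31 and the highest non-LRC value of 1.30 nearly met. Hoxa7 was the steadiest, at 0.855, 0.798 and 0.850 in LRCs and 0.687, 0.747 and 0.651 in non-LRCs, again without overlap.

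Hoxc6 stood at 1.48, 2.08 and 1.01 CPM per kb in LRCs and 1.15, 0.881 and 0.744 in non-LRCs, with the LRC library above in each pair. Hoxc5 stood at 1.001, 1.19 and 0.866 in LRCs and 0.511, 1.14 and 0.873 in non-LRCs, and Hoxc4 at 0.507, 0.521 and 0.299 against 0.558, 0.4996 and 0.243. Hoxa6 had 0.558, 0 and 0.959 CPM per kb in LRCs and 0.199, 0.270 and 0.299 in non-LRCs. These 4 genes overlapped between the groups. Hoxa3 had 0.221, 1.66 and 0.0890 in LRCs and 0.182, 0.205 and 0.0903 in non-LRCs, so that a single library, LRC of experiment 2, stood high. The same library held the high value of Hoxa4, 2.01 CPM per kb against at most 0.215 in the other 5 libraries, and Hoxa4 did not pass the filter.

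Along the Hoxa, Hoxc and Hoxd clusters, most genes past the filter stood side by side. In Hoxc, the 6 genes from Hoxc4 to Hoxc10 all passed the filter, and Hoxc11, Hoxc12 and Hoxc13 had 33, 13 and 2 counts. In Hoxa, the 5 genes from Hoxa5 to Hoxa10 passed together with Hoxa3 and Hoxa11, and Hoxa2, Hoxa4 and Hoxa13 did not, with 35, 122 and 34 counts. In Hoxd, Hoxd8 and Hoxd9 stood between genes at or near 0: Hoxd1, Hoxd4, Hoxd11 and Hoxd12 had no count, and Hoxd3 and Hoxd10 had 30 and 27. Hoxd13, at the end of the cluster and apart from Hoxd8 and Hoxd9, also passed the filter, with 115 counts. Exons of Hoxd3 and Hoxd4 overlap those of other genes over 62.8% and 52.3% of their bases in GENCODE vM21, and how reads there were counted is not known.

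No Hoxb gene passed the filter. Hoxb3, Hoxb5, Hoxb6, Hoxb7 and Hoxb8 had no count in any of the 6 libraries. The other 5, Hoxb4, Hoxb9, Hoxb2, Hoxb1 and Hoxb13, had 54, 24, 21, 5 and 2 counts over all libraries. In total, 9 of 39 Hox genes were at 0 in every library, or 23.1%, against 23.0% of all rows of the table. A count of 0 limits the level only to 3 counts per library, which is 0.0257 to 0.143 CPM. Expressed paralogs lay far above that limit for several of these genes: Hoxa5 was at least 41.6-fold and Hoxc5 at least 23.1-fold higher than Hoxb5 in each library, Hoxc6 at least 22.0-fold higher than Hoxb6, Hoxa7 at least 8.59-fold higher than Hoxb7 and Hoxa3 at least 5.42-fold higher than Hoxb3. An antisense gene covers 52.9% of the exonic bases of Hoxb3.

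Genes next to the clusters are named here after their values were seen. Beside Hoxb, Skap1 had 27 counts in all and Ttll6 none. Beside Hoxa, Hibadh stood at 43.3 to 65.4 CPM and Skap2 at 37.5 to 67.5 CPM over the 6 libraries, and beside Hoxd, Mtx2 stood at 13.4 to 29.9 CPM. Evx1 and Evx2, homeobox genes at the ends of Hoxa and Hoxd, had 15 and 0 counts in all.

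The comparison of LRCs with non-LRCs asked whether any Hox gene differs between slow-cycling chondrocytes and their progeny. No Hox gene was called up- or downregulated. In edgeR's quasi-likelihood test with the experiment as a block, 0 of 17 tested Hox genes had an adjusted p below 0.05, beside 1.28% of all 13728 genes tested, and 0 of 17 had an unadjusted p below 0.05, beside 18.4%. DESeq2 with the same block gave a p to 30 Hox genes and called 0 of them at an adjusted p below 0.05, beside 9.49% of its 17835 genes. It gave 2 an unadjusted p below 0.05, Hoxc10 among them, beside 19.1%. Several of the 30, such as Hoxb4 and Hoxd10, got no adjusted p and could not be called. The 9.49%, here and below, likewise counts all genes with a p. limma-voom called 0, beside 9.91%. The other 22 Hox genes failed the filter on low counts and were not tested by edgeR.

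**Figure D3:**
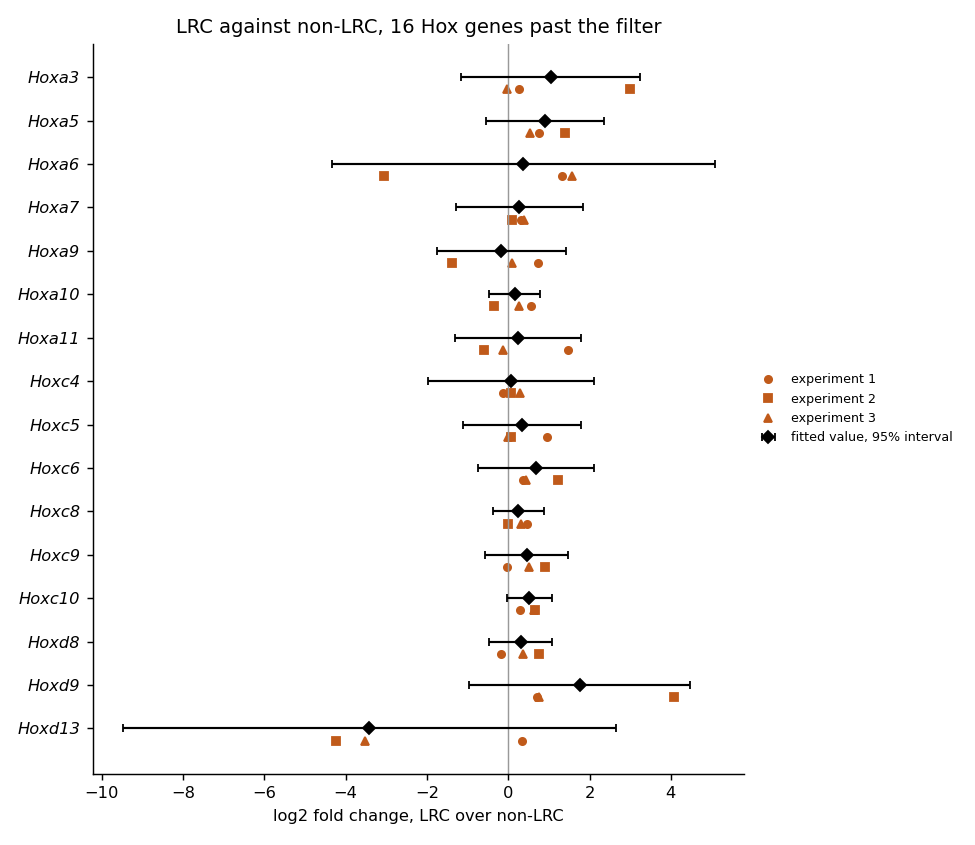
For 16 of the 17 tested Hox genes, the black diamond gives the fitted log2 fold change of LRC over non-LRC with its 95% interval, and orange markers the log2 difference within each experiment. All 16 intervals include 0, and the squares of experiment 2 lie more than 2 from 0 for Hoxa3, Hoxa6, Hoxd9 and Hoxd13.

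The tested members leaned towards LRCs without passing the test. Fitted log2 fold changes were above 0 for 14 of 17, beside 44% of all genes tested, with a median of 0.31 against -0.10 for all genes tested. This is a description of members that passed the filter. Between the groups, CPM did not overlap, with LRCs higher, for Hoxa5, Hoxa7 and Hoxd9, 3 of 17, beside 8.4% of all genes tested, and with LRCs lower for 1 of 17, beside 10.3%. In all 3 experiments the LRC library was the higher for Hoxa5, Hoxa7, Hoxc6, Hoxc10 and Hoxd9, 5 of 17, beside 20.4%, and the lower for 1 of 17, beside 26%.

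The most highly expressed tested member of each cluster also had the smallest error there. In Hoxb the highest member, Hoxb4, did not pass the filter. Hoxc10 had a log2 fold change of 0.52 (SE 0.22, 95% interval -0.03 to 1.07, adjusted p = 0.290 in edgeR), with within-experiment differences of 0.28, 0.66 and 0.62. For Hoxa10 the log2 fold change was 0.16 (SE 0.25, 95% interval -0.46 to 0.78, adjusted p = 0.777), with differences of 0.56, -0.35 and 0.27. For Hoxd8 it was 0.31 (SE 0.32, 95% interval -0.46 to 1.08, adjusted p = 0.656), with differences of -0.18, 0.75 and 0.36. Hoxc8 had 0.25 (95% interval -0.38 to 0.88). Changes of 2-fold in both directions thus lay outside the interval of Hoxa10 and Hoxc8, which held for no other tested Hox gene. For Hoxc10 and Hoxd8 a 2-fold decrease in LRCs lay outside the interval, and a 2-fold increase inside it. Hoxa10 was positive with all pairs and had -0.05 without experiment 1.

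The low genes were measured too coarsely to show a moderate difference. The SE of the log2 fold change was over 0.5 for 12 of 17 genes, and reached 2.48 for Hoxd13. Large fitted values belonged to genes with few counts, such as -3.42 for Hoxd13 (adjusted p = 0.520) and 1.76 for Hoxd9 (adjusted p = 0.458). Both of these genes had a library with fewer than 10 counts in experiment 2. Without experiment 2, edgeR called 0 of 18 tested Hox genes and gave 0 an unadjusted p below 0.05. The log2 fold change was then 0.45 for Hoxc10, 0.41 for Hoxa10, 0.09 for Hoxd8, 0.74 for Hoxd9, -1.75 for Hoxd13 and 0.14 for Hoxa3, which had 1.04 with all pairs.

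Summed over all clusters, the Hox level was higher in the LRC library of each pair. The sum over all 39 members was 100.2, 149.3 and 89.8 CPM in LRCs and 76.7, 114.1 and 71.0 CPM in non-LRCs. The log2 ratio within experiments was 0.39, 0.39 and 0.34, a mean of 0.37 ± 0.03 (SD, n = 3), while the ranges of the groups overlapped. This narrow spread depended on the TMM scaling. Scaled by total counts, the ratio was 0.33, 0.50 and 0.27, a mean of 0.37 ± 0.12. Sums weight the highly expressed genes most, and no test was made of them.

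**Figure D4:**
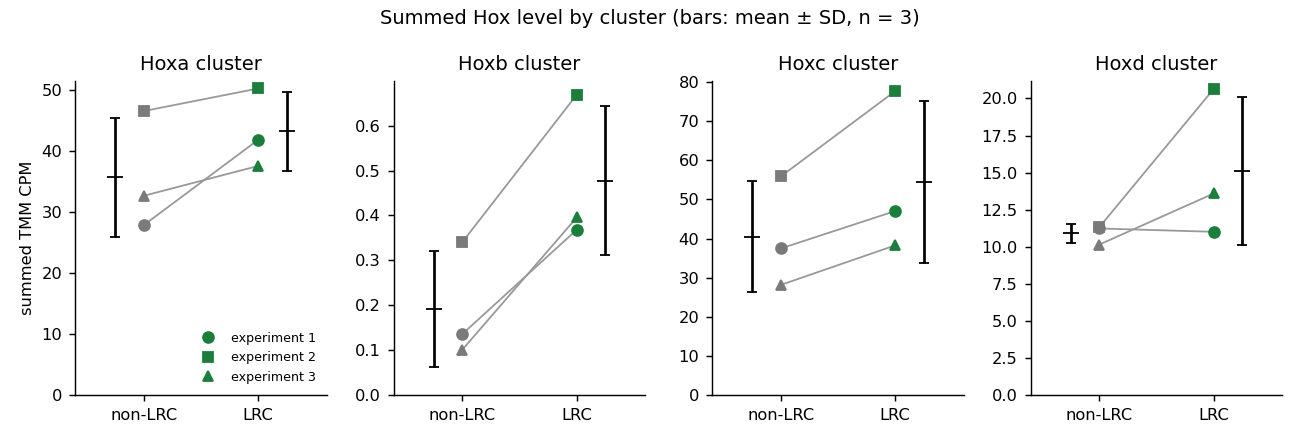
Summed TMM-normalized CPM of each Hox cluster, with lines joining the non-LRC and LRC library of an experiment and black bars giving the mean ± SD (n = 3). The axes start at 0 and differ between panels. All lines rise from non-LRC to LRC, except that of experiment 1 in the Hoxd cluster (11.2 to 11.0).

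By cluster, Hoxc summed to 47.0, 77.7 and 38.3 CPM in LRCs and to 37.5, 55.9 and 28.1 in non-LRCs. Its mean log2 ratio was 0.42 ± 0.08 (SD, n = 3), and 0.41 ± 0.16 when scaled by total counts. The Hoxa sum was 41.8, 50.2 and 37.5 CPM in LRCs and 27.8, 46.5 and 32.6 in non-LRCs, a mean log2 ratio of 0.30 ± 0.25. The Hoxd sum was 11.0, 20.6 and 13.6 CPM in LRCs and 11.2, 11.3 and 10.1 in non-LRCs, a mean log2 ratio of 0.42 ± 0.45, with experiment 1 at -0.03 and experiment 2 at 0.87. The Hoxb sum never exceeded 0.669 CPM. Without experiment 2, the mean log2 ratio was 0.36 over all members, 0.39 for Hoxc, 0.39 for Hoxa and 0.20 for Hoxd. Without experiment 1 it was 0.36 over all members, 0.46 for Hoxc, 0.16 for Hoxa and 0.65 for Hoxd.

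Markers of other cell types were summed beside the Hox values. The superficial articular and synovial list summed to 480 to 2108 CPM in LRCs and 101 to 122 in non-LRCs. In edgeR 3 of its 6 genes (Cilp, Prg4 and Thbs4) were upregulated in LRCs, beside 1.28% of all genes tested called in either direction. Of its 6 fold changes 5 were above 0, beside 44% of all genes tested. The perichondrial, tendon and fibroblast list summed to 60.5 to 67.9 CPM in LRCs and 18.3 to 27.3 in non-LRCs. Here 0 of 6 tested genes were called (beside 1.28%), with 4 fold changes above 0 and 2 below, and Postn was at 0 in the LRC libraries. The osteoblast list summed to 226 to 422 CPM in LRCs and 424 to 610 in non-LRCs. Of its 6 genes, 1 was called (beside 1.28%), Col1a1, which was higher in LRCs, with 2 fold changes above 0 and 4 below. The 4 lower genes had an unadjusted p below 0.05 in edgeR, beside 18.4% of all genes tested in either direction. Hypertrophic markers summed to 598 to 1834 CPM in LRCs and 528 to 1963 in non-LRCs, with all 5 fold changes below 0. Skeletal muscle markers summed to 5.69 to 12.1 CPM in LRCs and 8.89 to 13.96 in non-LRCs, with the 3 tested fold changes below 0. The cells were sorted for tdTomato after the growth plates were dislodged and digested with collagenase, a procedure meant to leave articular cells behind. The part of other cell types in the Hox values was not tested.

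Of the TALE cofactors, 7 of 9 passed the filter and edgeR called 0 of them, beside 1.28% of all genes tested. Pknox1 was the most abundant per length, with 91.7, 32.9 and 72.9 CPM in LRCs and 74.0, 53.5 and 64.9 CPM in non-LRCs, and a log2 fold change of -0.07 (95% interval -0.64 to 0.51). Meis3 stood at 9.11, 15.3 and 7.49 CPM in LRCs and 3.43, 6.73 and 3.86 in non-LRCs, with no overlap. Its log2 fold change was 1.19 (SE 0.34, adjusted p = 0.151 in edgeR), with adjusted p = 0.0173 in DESeq2 and 0.0402 in limma-voom. Meis3 was the 1 cofactor called by DESeq2, of 9 with a p (beside 9.49%), and by limma-voom, of 7 (beside 9.91%).

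Pbx3, Meis1, Pbx2 and Pknox2 overlapped between the groups. Pbx3 had 5.33, 7.03 and 5.82 CPM in LRCs and 6.35, 4.03 and 4.19 in non-LRCs, with a log2 fold change of 0.34. Meis1 had 1.25, 0.621 and 3.00 CPM against 1.23, 0.367 and 0.362, with 1.23, and Pbx2 had 1.87, 0.382 and 0.675 against 2.30, 1.89 and 0.946, with -0.98. Pknox2 had 10.3, 0 and 16.3 CPM in LRCs and 5.30, 3.82 and 5.63 in non-LRCs, with a log2 fold change of -0.16 that combines higher values in experiments 1 and 3 with the 0 of the LRC library of experiment 2. Meis2, a limb cofactor, and Pbx4 failed the filter, with 76 and 35 counts.

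**Figure D5:**
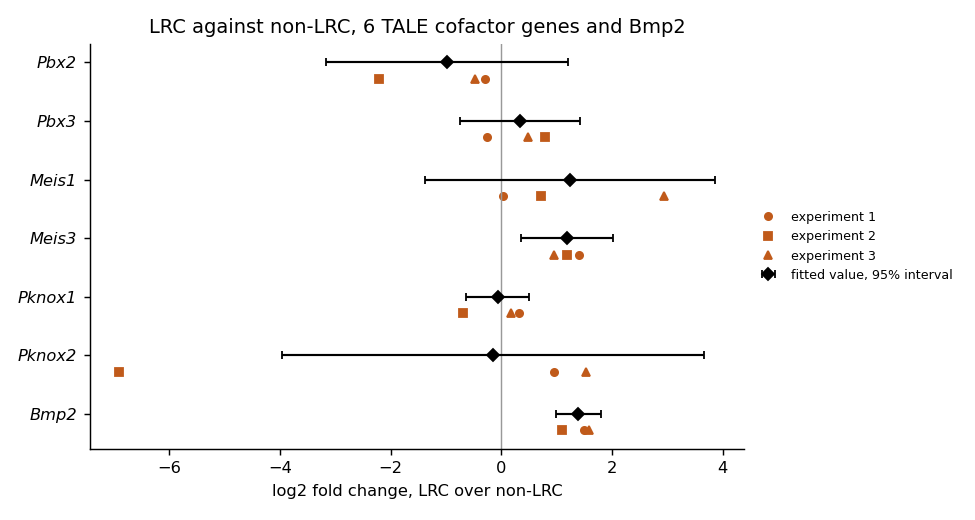
For 6 of the 7 TALE cofactor genes past the filter and for Bmp2, black diamonds give the fitted log2 fold change of LRC over non-LRC with its 95% interval and orange markers the log2 difference within each experiment. The intervals of Meis3 and Bmp2 lie above 0, and Pknox2 is split by the square of experiment 2.

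Of the genes of the machinery that keeps Hox clusters silent or active, only Polycomb genes were called, and not by all tools. Of 27 tested Polycomb group genes, which encode the complexes that repress Hox clusters, edgeR called 0, beside 1.28% of all genes tested, with a median log2 fold change of 0.24. At an unadjusted p below 0.05 it had 6, all higher in LRCs, beside 18.4% of all genes tested in either direction. DESeq2 called 4 of 28 (Bmi1, Cbx6, Phc2 and Phf1), beside 9.49%, and limma-voom called 3 of 27 (Bmi1, Cbx6 and Phc2), beside 9.91%, all higher in LRCs. The trithorax group genes, which act against Polycomb, were listed together with Ctcf, which is not one of them. All 3 tools called 0 of the 10 tested genes of this list, beside 1.28% (edgeR), 9.49% (DESeq2) and 9.91% (limma-voom) of all genes. At an unadjusted p below 0.05 edgeR had 1, which was lower in LRCs, beside 18.4%. The median log2 fold change of this list was -0.06.

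Of 12 tested limb identity and limb axis factors edgeR called 0, beside 1.28% of all genes tested, with a median log2 fold change of 1.10. At an unadjusted p below 0.05 it had 5, all higher in LRCs, beside 18.4% of all genes tested in either direction. These 5 genes, Pitx1, Prrx1, Prrx2, Tbx15 and Tbx18, were called by DESeq2, of 18 with a p, beside 9.49%. The same 5, of 12 tested, were called by limma-voom, beside 9.91%. For Tbx15 the log2 fold change was 1.02 (adjusted p = 0.0587 in edgeR, 2.86e-05 in DESeq2 and 0.00446 in limma-voom), and for Pitx1, a gene of hindlimb identity, it was 1.197 (adjusted p = 0.0681 in edgeR, 0.000145 in DESeq2 and 0.00534 in limma-voom). The noncoding RNAs of the clusters had 2 genes tested in edgeR, with a median of 1.05. Of these RNAs 0 were called by edgeR (beside 1.28%), DESeq2 (beside 9.49%) or limma-voom (beside 9.91%). The genes flanking the clusters had 8 tested and 0 called in edgeR (beside 1.28%), with a median of 0.01. Calcoco1 was the 1 gene called by DESeq2, of 10 with a p (beside 9.49%), and by limma-voom, of 8 (beside 9.91%). None of the 11 genes of the homeobox families next in line to Hox passed the filter.

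Genes reported elsewhere to be under Hox control held 1 gene called by edgeR among 8 tested, beside 1.28% of all genes tested, with a median log2 fold change of 0.49. DESeq2 called 2 of 9 (Bmp2 and Bmp7), beside 9.49%, and limma-voom 3 of 8 (Bmp2, Bmp7 and Itga8), beside 9.91%. The gene called by edgeR was Bmp2, a BMP ligand of cartilage and bone. It stood at 124.2, 114.5 and 114.2 CPM in LRCs and 44.1, 53.9 and 38.3 CPM in non-LRCs, with every LRC library above every non-LRC library. Its log2 fold change was 1.39 (SE 0.17, 95% interval 0.98 to 1.80, adjusted p = 0.0330). In edgeR the call was lost without the block (adjusted p = 0.111) and without experiment 1 (adjusted p = 0.124), with log2 fold changes of 1.37 and 1.33.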

How the data were processed

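RNA of 3 LRC and 3 non-LRC libraries was analysed. The authors made cDNA with SMART-Seq v4, sequenced single-end reads, aligned them to mm10 (GRCm38) with TopHat2 2.0.13 and Bowtie2 2.2.1, and counted unambiguous reads with HTSeq. Annotation and strand setting are not given in the sources used here. The authors deposited raw counts for 23159 genes, which entered all tests. The deposited normalized signal (counts divided by size factors) and the deposited log2 (rlog) values were not used. Groups and experiment numbers came from the sample labels. The Hox genes and all gene lists were chosen with earlier results of these data known.

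The tests were run with edgeR 4.0.16 in R 4.3.3. The filter filterByExpr (minimum count 10, minimum total 15) left 13728 genes. The model had TMM normalization, the quasi-likelihood test, a block for the experiment and Benjamini-Hochberg adjustment over all genes tested. The block follows the study's methods, which pair by mouse of origin. Deviations from the group means correlated across genes within experiments with Pearson r of 0.197, 0.288 and 0.336. With the block, p-values rest on the spread of the LRC against non-LRC difference between these 3 experiments, with information shared across genes. Alternatives were DESeq2 1.42.0, limma-voom (limma 3.58.1), other filters and scalings, no block, and each experiment left out. Within-experiment differences used log2 CPM with a prior count of 2. Lengths, positions and homeoboxes came from GENCODE vM21. Values in each library were given for Hox genes past the filter, full statistics for called genes and, for contrast, the highest member per length of each cluster, and from the lists called genes and tested cofactors, except for a Hox gene and a cofactor that are not reported here. Library totals ranged from 18943789 to 129559872 counts, and limits of 3 counts for a count of 0 cover counting error only. Compared within a group, libraries differed by a chi-square of at least 192 per gene, so none was a copy.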

Additional observations from a re-analysis of the deposited data

How the results depend on the processing

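No Hox gene was called under any of the 10 alternatives. For several of them this says little about stability. Asking for a fold change of at least 2 could only remove calls, and the fit without the block called 1 gene of all 13728. The fit without experiment 1 called 35 of 13805, that with DESeq2 size factors 199 of 13728 and that with no filter 256 of 17835. Where so small a share of all genes is called, few or none of so small a set would be called in any case. The number of all genes called, 176 in the reported fit, changed with the setting. It was 1 without the replicate block, 1692 with DESeq2, 751 with at least 10 counts in every library, 1361 with limma-voom and 35 to 782 with an experiment left out. List genes called, 1 in the reported fit (Bmp2), were 0 without the block, 13 with DESeq2, 7 with 10 counts in every library, 2 with no filter, 13 with limma-voom and 0 to 8 with an experiment left out. Neither with nor without the experiment block, which pairs the libraries, was a Hox gene called.

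Of 149 values of single Hox genes under alternatives, 140 kept their sign and 9, of 5 genes, reversed, all at adjusted p above 0.05. Hoxa9 (-0.17) went to 0.069 without the block and 0.38 with limma-voom, and Hoxc4 (0.07) to -0.028 with limma-voom. With each experiment left out in turn, the value ranged from -0.99 to 1.57 for Hoxa6, from -0.66 to 0.42 for Hoxa9, from -0.046 to 0.41 for Hoxa10, from -0.36 to 0.68 for Hoxa11 and from -0.019 to 0.18 for Hoxc4. With the longest transcript as length, Hoxa10 had a mean of 8.89 CPM per kb in place of 6.97.

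With 3 experiments, and 18943789 counts in the smallest library, an interval narrower than 2-fold in both directions was reached for 2 tested Hox genes, Hoxa10 and Hoxc8. Levels of the other members near 0 rest on few reads.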
